A study of Mus musculus with 4 samples.

Results

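The genes described here are 10 members of the red cell programme: the alpha-globin genes Hba-a1 and Hba-a2, the beta-globin genes Hbb-b1 and Hbb-b2, the transcription factors Gata1, Gfi1b and Klf1, the erythropoietin receptor Epor, the blood group gene Rhd and the haem synthesis gene Alas2. They were chosen by name, and all 10 were found among the 21889 genes measured. The RNA came from 4 cell lines of acute myeloid leukaemia (AML) that arose in mice of the inbred strain BXH-2. B117H and B140H are highly resistant to cytarabine (Ara-C), a nucleoside drug used against AML, and were derived from the sensitive parental lines B117P and B140P. Their IC50 for the drug was labelled as near 160 µg/ml in B117H and 150 ng/ml in B117P, and near 60 µg/ml in B140H and 110 ng/ml in B140P. The labels list exposure to rising Ara-C doses for all 4 lines, parents included, and passage in ASM medium without the drug. A line and its parent are called a lineage below.

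In red cell precursors, GATA1 and KLF1 activate the globin, haem synthesis and membrane genes, while GFI1B is a repressor that works beside them and is also found in early blood progenitors and platelet precursors. Erythropoietin acts through its receptor EPOR to keep these precursors alive. Adult haemoglobin is made of alpha and beta chains, and ALAS2 carries out the first step of haem synthesis in red cells, where most other tissues use ALAS1. Rhd encodes an Rh membrane protein of red cells, whose partner is encoded by Rhag.

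In the reference annotation each globin pair is made of near-identical copies at separate positions, which limits what single values can say. Whether the BXH-2 lines carry these alleles was not tested. The deposited values list both names of a pair at the same span, so a value cannot be assigned to 1 copy. Whether reads of both copies entered a pair's sum was not tested. In the GENCODE M21 transcripts of GRCm38, the coding sequences of Hba-a1 and Hba-a2 are 426 bases long and differ at 1 base, with no residue changed. The stretch from coding base 352 to 411 is shown because it holds that base, which is in capitals. It lies on the plus strand of chromosome 11 in exons of both genes, at 32284314 to 32284373 for Hba-a1 and at 32297131 to 32297190 for Hba-a2.
Hba-a1: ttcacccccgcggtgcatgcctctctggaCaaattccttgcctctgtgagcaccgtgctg
Hba-a2: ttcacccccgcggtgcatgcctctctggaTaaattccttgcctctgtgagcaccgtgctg

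The same holds for the adult beta genes of that annotation, which are named Hbb-bs and Hbb-bt there and not Hbb-b1 and Hbb-b2. Their coding sequences of 441 bases differ at 1 base, again with no residue changed. Coding bases 358 to 417 are shown for both, with the differing base in capitals. They lie on the minus strand of chromosome 7, at 103826692 to 103826751 for Hbb-bs and at 103812683 to 103812742 for Hbb-bt.
Hbb-bs: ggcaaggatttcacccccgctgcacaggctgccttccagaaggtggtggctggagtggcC
Hbb-bt: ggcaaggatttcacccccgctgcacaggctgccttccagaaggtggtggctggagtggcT

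Outside the coding sequence the alpha transcripts were identical over the 35 bases before it and the 77 bases after it that both annotated transcripts cover. The beta transcripts differed at 9 of 53 bases before it and, compared position by position without gaps, at 85 of 134 bases after it.

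Values are FPKM, a fragment count corrected for transcript length and library size, with 1 library per line, so there is no replicate error within a line. From the spacing of low values, the libraries held an estimated 19400000 fragments in B117H, 22250000 in B117P, 24700000 in B140H and 19250000 in B140P. A change is called when FPKM + 1 differs at least 2-fold and the mean FPKM over the 4 libraries is 1 or more, which 5 of the 10 members and 10066 genes reached. The 95% intervals below are exact Clopper-Pearson intervals from estimated fragments and cover counting error only. Of 8 markers of myeloid leukaemia, 8 were at 1 FPKM or more in both B117H and B117P, against 5 in B140H and 6 in B140P. Ptprc, the pan-leukocyte antigen CD45, was at 50.1 FPKM or more in all 4 lines, and Sfpi1, which encodes PU.1, at 76.6 FPKM or more. Others differed between the lineages. Mpo, the myeloperoxidase of granulocyte precursors, fell to 473 FPKM in B117H, against 1450 in B117P, and to 0.913 in B140H, against 10.4 in B140P. Cd33, a myeloid surface antigen, had 54.8 FPKM in B140H and 120 in B140P, a fall past the rule, and 10.6 in B117H and 8.58 in B117P. Cd34, a progenitor antigen, was listed at 0 in B140H and 0.0432 FPKM in B140P, against 206 in B117H and 200 in B117P. Ptprc and Cd34 were chosen after their values were seen, as were Rhag and the genes named below because they were listed at 0.

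Gfi1b was the member with the highest mean level. Of the activators of the red cell programme, Gata1 was near the limit of detection, and Klf1 was low, at 0.619 FPKM or less. Averaged over the 4 libraries, Gfi1b stood at 22.2 FPKM, the summed beta globins at 9.57, Rhd at 4.29 and the summed alpha globins at 2.39. Alas2 averaged 0.454 FPKM, Klf1 0.333, Epor 0.0576 and Gata1 0.0242. This order is of means over lines that differ, and no spread within a line is known.

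**Figure D1:**
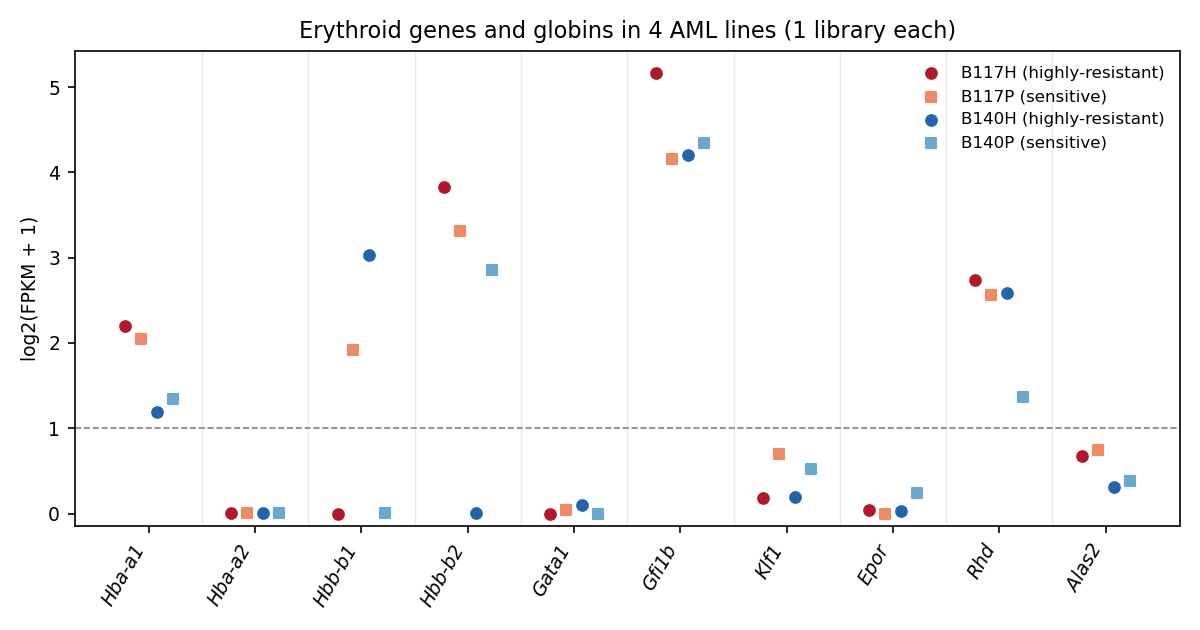
Level of each of the 10 members in the 4 libraries, as log2(FPKM + 1) on the vertical axis; circles are the highly resistant lines, squares their sensitive parents, and the dashed line marks 1 FPKM. Gfi1b is above 16 FPKM in all 4 lines, while Gata1, Epor, Klf1, Alas2 and Hba-a2 stay below 1 FPKM in each.

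Gfi1b spans bases 28464970 to 28477502 of chromosome 2 (mm9). It had 35.0 FPKM in B117H, against 16.8 in B117P. In the other lineage it had 17.5 FPKM in B140H and 19.3 in B140P. B117H thus stood apart from the other 3 lines, which lay close together. The log2 ratio of B117H over B117P was 1.01, just past the 2-fold rule, and that of B140H over B140P was -0.14. The FPKM of B117H was 208% of that of B117P (interval 188% to 229%), and that of B140H was 90.5% of that of B140P (81.1% to 101%). The neighbouring genes did not pass the rule. Tsc1, a brake on the mTOR kinase, had log2 ratios of -0.05 for B117H and 0.04 for B140H. Gtf3c5, a subunit of an RNA polymerase III factor, had 0.22 and 0.46.

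Rhd, on chromosome 4 from 134420451 to 134452087, was past the rule in the other lineage. It had 5.69 FPKM in B117H and 4.9004 in B117P, and 4.98 in B140H and 1.57 in B140P. The low value was that of the parental line B140P, and the other 3 lay close together. Its ratio on the log2 scale was 0.18 for B117H and 1.22 for B140H, each over its parent. B140H held 317% of the FPKM of B140P (interval 227% to 445%). B117H held 116% of that of B117P, with an interval of 93.0% to 145% that includes no change. Tmem50a, whose listed span begins 1677 bases after that of Rhd, had 106 FPKM in B140H and 85.8 in B140P, a log2 ratio of 0.30. Tmem57, the nearest gene on the other side, had log2 ratios of -0.17 for B117H and -0.02 for B140H. Rhag, whose product forms a complex with the Rh protein, had 0.156 FPKM in B117H, 0.119 in B117P, 0.0181 in B140H and 0.0462 in B140P, so Rhd was above 1 FPKM and Rhag below it in every line.

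Of the 5 members among the 10 that met the filter, 2 passed the rule in lineage B117, 1 higher and 1 lower. There 4.62% of all expressed genes passed, 1.41% higher and 3.21% lower. In lineage B140, 2 were higher and 1 was lower, where 3.94% of expressed genes passed, 2.31% higher and 1.63% lower. With each globin pair summed, 1 gene was left in each lineage, Gfi1b in B117 and Rhd in B140. A level in a culture cannot tell fewer expressing cells from less RNA per cell.

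**Figure D2:**
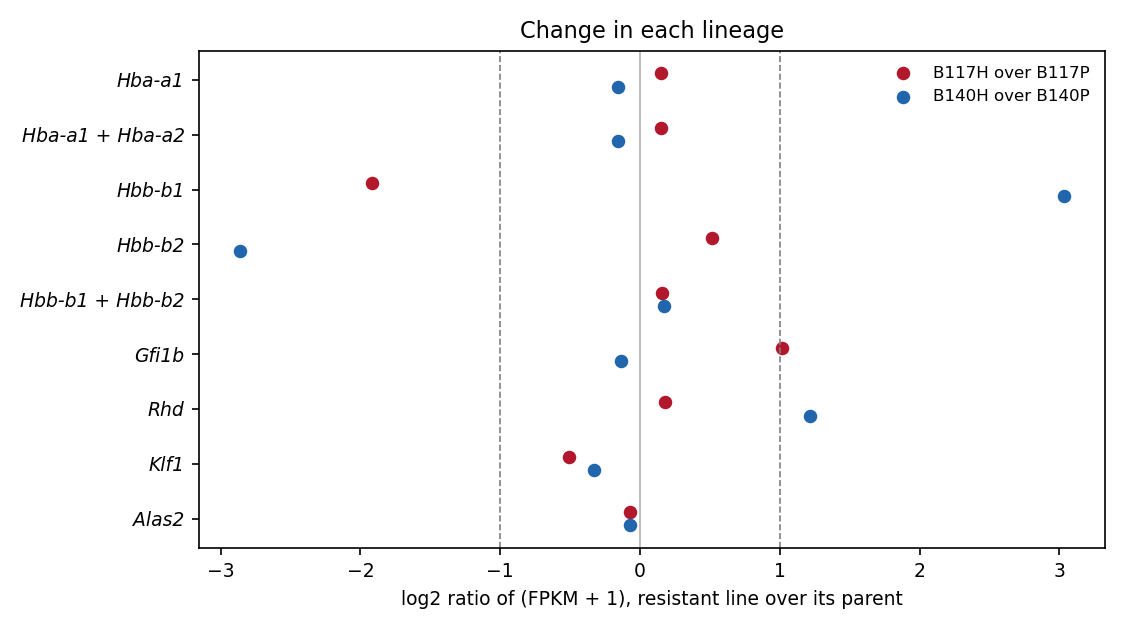
Log2 ratio of FPKM + 1, resistant line over its parent, for the 5 members that passed the filter, the 2 pair sums and the low genes Klf1 and Alas2; red points are lineage B117, blue points lineage B140, and dashed lines mark 2-fold. Hbb-b1 lies past 2-fold in opposite directions in the lineages and Hbb-b2 past it in lineage B140 alone, while their sum is at 0.16 and 0.17.

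The beta globins carried the widest single-gene swings, and these vanished in the sum. Hbb-b1 and Hbb-b2 share 1 listed span on chromosome 7, from 110961038 to 110962437 in mm9. Hbb-b1 was listed at 0 in B117H and at 2.77 FPKM in B117P, and at 7.17 in B140H and 0.000183 in B140P. Hbb-b2 was at 13.2 FPKM in B117H and 8.93 in B117P, and at 0.000201 in B140H and 6.26 in B140P. Hbb-b2 therefore held 100% of the pair in B117H, 76.3% in B117P, 0.00281% in B140H and close to all of it in B140P.

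Their sum was 13.2 FPKM in B117H and 11.7 in B117P, and 7.17 in B140H and 6.26 in B140P. That is 113% of the parental level in B117H (interval 89.4% to 140%) and 115% in B140H (84.3% to 154%), so neither difference was larger than counting error. Both names are listed at the same span. The level thus stood under Hbb-b2 in B140P and under Hbb-b1 in B140H, at an almost constant total. These values cannot tell which beta-globin copy was expressed. How reads were divided between the names is not given in the sources used here, and its part in this difference was not tested.

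**Figure D3:**
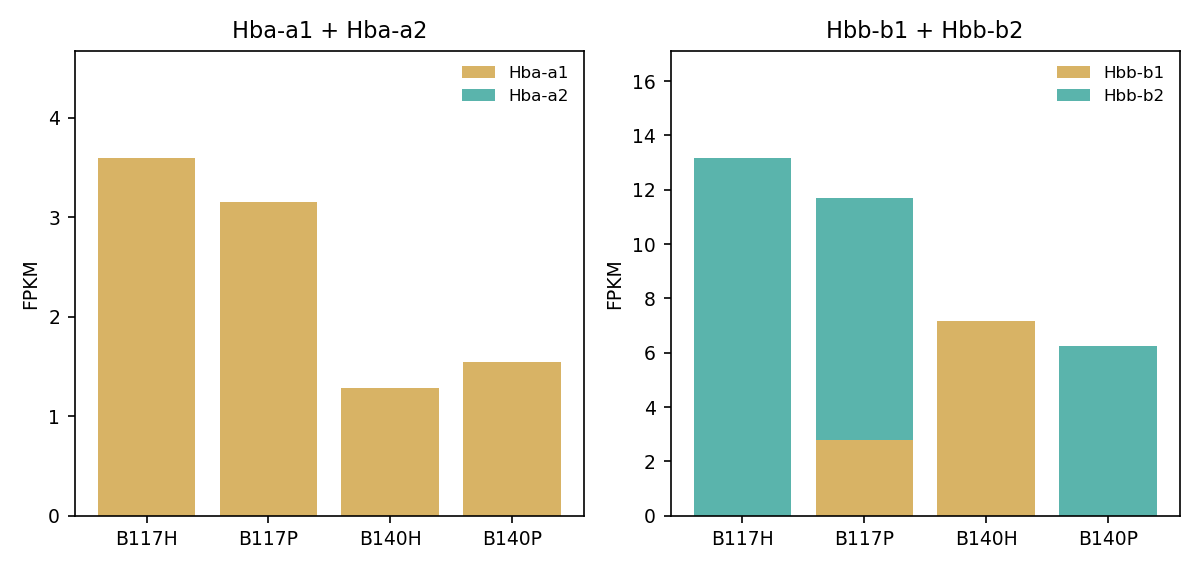
FPKM of the alpha-globin pair (left) and the beta-globin pair (right) in each line, stacked by gene, with both axes starting at 0. The split of the beta pair differs between lines while each resistant line has nearly the total of its parent: 13.2 FPKM in B117H and 11.7 in B117P, and 7.17 in B140H and 6.26 in B140P.

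The alpha pair was assigned to 1 name in all 4 libraries. Hba-a1 and Hba-a2 share the span from 32196489 to 32197310 on chromosome 11. Hba-a1 had 3.59 FPKM in B117H, 3.15 in B117P, 1.28 in B140H and 1.54 in B140P, while Hba-a2 stayed at or below 0.00253 FPKM. The summed level was 114% of the parental one in B117H (interval 71.7% to 184%) and 83.0% in B140H (42.2% to 184%), on an estimated 38.6 fragments in B117H, 38.8 in B117P, 17.6 in B140H and 16.5 in B140P. Summed beta globin exceeded summed alpha globin 3.66 times in B117H, 3.72 times in B117P, 5.59 times in B140H and 4.05 times in B140P.

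Both globin sums were lower in lineage B140 than in lineage B117. Positions listed for 6 genes were not the same in both lineages, and 0 differed inside a lineage. Separate normalisation of the lineages is therefore possible, and every value set across them carries that limit. Between the resistant lines the beta sum of B140H was 54.5% of that of B117H (interval 42.4% to 69.9%), and between the parents that of B140P was 53.5% of that of B117P (40.3% to 70.7%). For the alpha sum the shares were 35.7% (19.5% to 64.9%) and 49.1% (24.7% to 86.8%). The alpha sum passed the rule between the resistant lines with a log2 ratio of -1.01, and the other 3 sums did not, with values between -0.81 and -0.70. Across the lineages 3 members passed between B140H and B117H, with Hbb-b1 higher and Hba-a1 and Hbb-b2 lower in B140H, where 18.9% of expressed genes did, 9.69% higher and 9.19% lower. Between B140P and B117P 2 members passed, Hbb-b1 and Rhd, both lower in B140P, where 16.6% did, 5.83% higher and 10.8% lower.

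The embryonic and other globins were close to absent. Of 4 genes of this list found, Hba-x, Hbq1 and Hbb-bh1 were listed at 0 in all 4 libraries. Hbb-y, the embryonic epsilon-type chain, was listed at 0.267 FPKM in B117P and 0.0857 in B140H, and at 0 in B117H and B140P.

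Gata1, the master factor of the erythroid lineage, on chromosome X from 7536386 to 7544941, was listed at 0 in B117H and 0.0259 FPKM in B117P, and at 0.0710 in B140H and 0 in B140P. These are an estimated 0 fragments in B117H, 1.1 in B117P, 3.3 in B140H and 0 in B140P. A count of 0 allows up to 0.0813 FPKM in B117H and 0.0819 in B140P, so no difference between lines was detectable at this depth. Epor was as low, with 0.0286 FPKM in B117H, 0 in B117P, 0.0233 in B140H and 0.178 in B140P, or an estimated 1 fragment in B117H, 0 in B117P, 1 in B140H and 6 in B140P. B140H held 13.1% of the Epor level of B140P, with an interval of 0.282% to 107% that includes no change.

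Klf1, an activator of adult beta globin on chromosome 8 from 87425827 to 87429194, was lower in both resistant lines, on few fragments. It had 0.139 FPKM in B117H and 0.619 in B117P, and 0.142 in B140H and 0.432 in B140P. Both resistant values lie below both parental values. Among the 10 members the groups did not overlap for Klf1, lower, and Rhd, higher. Of the 14556 genes above 0 in a library, 6.49% were lower and 8.84% higher without overlap. For Rhd this rests on 4.98 FPKM in B140H against 4.9004 in B117P, a narrow gap set across the lineages. B117H kept 22.4% of the parental level (interval 5.45% to 64.7%) and B140H 32.9% (8.37% to 89.6%), from an estimated 4.1 fragments in B117H, 21.1 in B117P, 5.4 in B140H and 12.7 in B140P. Klf1 did not reach the mean of 1 FPKM, so the 2-fold rule was not applied to it. Its neighbour Dnase2a, which encodes a nuclease, had 17.2 FPKM in B117H and 27.3 in B117P, and 17.5 in B140H and 19.6 in B140P. Syce2, the nearest gene on the other side, had log2 ratios of -0.23 for B117H and 0.30 for B140H.

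Alas2, on chromosome X from 146981960 to 147005165, followed the globins in being lower in lineage B140. It had 0.593 FPKM in B117H and 0.675 in B117P, and 0.242 in B140H and 0.308 in B140P. Against its parent, B117H held 88.0% (interval 47.4% to 151%) and B140H 78.5% (32.0% to 190%), both within counting error. B140H held 40.7% of the level of B117H (18.6% to 85.8%), and B140P 45.6% of that of B117P (20.9% to 89.6%).

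**Figure D4:**
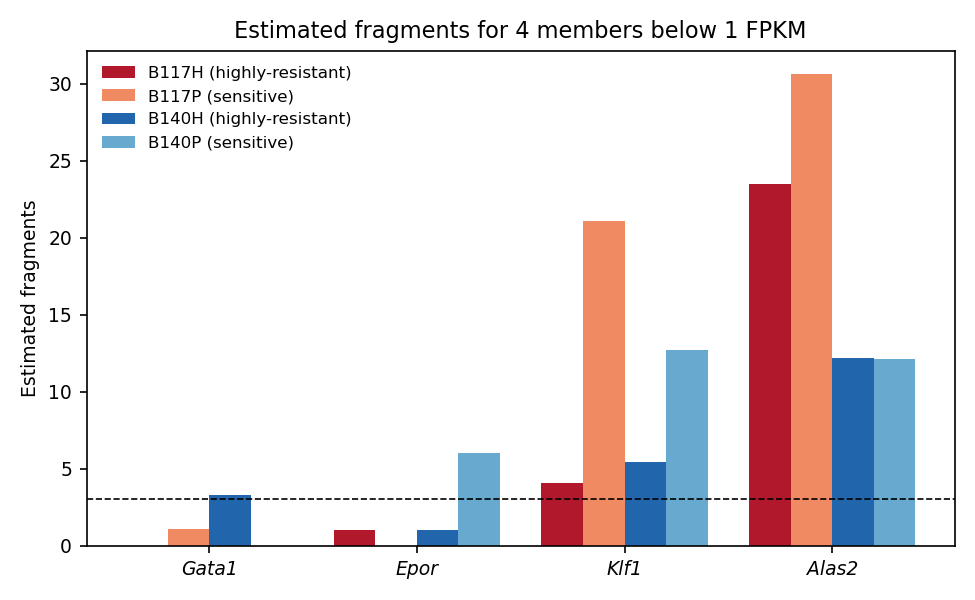
Estimated fragments behind Gata1, Epor, Klf1 and Alas2 in each library; the dashed line marks 3 fragments and the axis starts at 0. Gata1 and Epor are at or below 6 fragments in every line, and Klf1 is lower in B117H than in B117P and in B140H than in B140P.

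Taking the 2 lineages as the only replicates, limma with the lineage as a block called 0 of the 5 members tested and 0 of 10066 genes, 0% of them, at an adjusted p of 0.05. The members' adjusted p was 0.9995 each, and 0 of the 5 had an unadjusted p under 0.05, against 218 of all genes. Rhd came closest, with a mean log2 ratio of 0.70 (SE 0.33), higher in 2 of 2 resistant lines, though within counting error in B117H. Gfi1b had 0.44 (SE 0.33), which was -0.042 without B117H in a fit without the block, and Hba-a1 -0.00 (SE 0.28). Without the filter, limma gave unadjusted p-values of 0.0394 for Klf1 and 0.0318 for Alas2, both lower in 2 of 2 resistant lines, with an adjusted p of 1 for each and 540 of 21889 genes under 0.05 unadjusted. The log2 ratio of Alas2 was -0.07 in each lineage, within counting error. The blocked fits with and without the filter each have 1 residual degree of freedom. Their SEs and p-values also draw on variance shared across genes.

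The promoters of Gfi1b and Rhd, the genes past the rule within a lineage once globin pairs are summed, are shown with that of Gata1, the factor whose motif was searched. They are the 250 bases before each RefSeq start (GRCm38.p6), printed 5′ to 3′ along the gene. Capitals mark GATA motifs on either strand, spelled as A or T, then GATA, then A or G. The Gfi1b sequence is chr2:28621983-28622232 on the minus strand, that of Rhd chr4:134864286-134864535 on the plus strand and that of Gata1 chrX:7967911-7968160 on the minus strand.
Gfi1b: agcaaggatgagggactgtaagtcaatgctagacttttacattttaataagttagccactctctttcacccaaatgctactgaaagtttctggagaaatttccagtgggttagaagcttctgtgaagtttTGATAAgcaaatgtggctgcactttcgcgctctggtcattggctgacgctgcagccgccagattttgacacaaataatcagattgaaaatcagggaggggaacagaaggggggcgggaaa
Rhd: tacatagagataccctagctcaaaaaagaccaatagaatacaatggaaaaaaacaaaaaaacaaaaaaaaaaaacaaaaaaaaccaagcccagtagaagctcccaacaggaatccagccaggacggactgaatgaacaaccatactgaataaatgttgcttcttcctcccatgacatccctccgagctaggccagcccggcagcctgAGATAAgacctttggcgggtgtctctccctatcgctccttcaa
Gata1: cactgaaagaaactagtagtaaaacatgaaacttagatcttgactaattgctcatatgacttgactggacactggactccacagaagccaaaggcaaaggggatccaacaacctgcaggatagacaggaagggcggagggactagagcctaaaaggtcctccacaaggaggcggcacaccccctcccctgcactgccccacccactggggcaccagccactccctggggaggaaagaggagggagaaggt

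The motif begins 120 bases before the start in Gfi1b and 43 bases before it in Rhd, and the Gata1 window has 0 matches. Of the 10 members, 8 matched a promoter by symbol. Besides Gfi1b and Rhd, a GATA match begins 80 bases before the start in Klf1, 54 in Epor, 86 in Alas2, 183 in Hba-a1 and 186 in Hba-a2. Of 32851 promoter windows of this length, 26.5% hold a match. The window of Hbb-bs held 1 match and that of Hbb-bt 0. The KLF motif CCNCNCCC, counted on both strands with overlaps allowed, had 3 matches in Gata1, 2 in Gfi1b, 4 in Epor, 4 in Alas2, 1 in Hbb-bs, 1 in Hbb-bt and 0 in Hba-a1, Hba-a2, Klf1 and Rhd, and 45.9% of all windows hold it. A match is a description of the letters and not a binding site.

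The partners of GATA1 were expressed in these lines although Gata1 was not detected beyond 3.3 estimated fragments. Of 19 erythroid transcription factors and partners found, 17 were at 1 FPKM or more in each of the B117 lines and 16 in each of the B140 lines. Among the 17 that passed the filter, 1 fell and none rose in lineage B117, and none passed the rule in lineage B140. The fall was of Klf3, a repressor of the KLF family, with 0.713 FPKM in B117H and 2.67 in B117P. Zfpm1, which encodes the GATA1 cofactor FOG1, had 5.87 FPKM in B117H and 3.35 in B117P, and 25.9 in B140H and 17.6 in B140P. Bcl11a, a repressor of embryonic globins, had 49.9 FPKM in B117H and 36.4 in B117P, and 5.64 in B140H and 9.85 in B140P. Both differed more between the lineages than between a line and its parent. Zfpm1 was higher in both resistant lines, with log2 ratios of 0.66 for B117H and 0.53 for B140H, neither past the rule. Bcl11a was higher in B117H and lower in B140H. The list's median log2 ratio was -0.04 for B117H and 0.18 for B140H, beside -0.03 and 0.11 over all 10066 genes.

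Gata2, the GATA factor of stem and mast cells, had 0.139 FPKM in B140H and 0 in B140P, against 6.78 in B117H and 4.94 in B117P. Lmo2, Tal1 and Ldb1, which form a complex with GATA factors, were present in every line. Lmo2 lay between 106 and 154 FPKM, Ldb1 between 56.9 and 80.4, and Tal1 was at 4.82 or more. Nfe2, whose product binds the globin locus control region, had 3.23 FPKM in B140H and 2.76 in B140P, against 26.7 in B117H and 31.1 in B117P. Lmo2, Tal1, Ldb1 and Nfe2 were chosen after their values were seen.

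**Figure D5:**
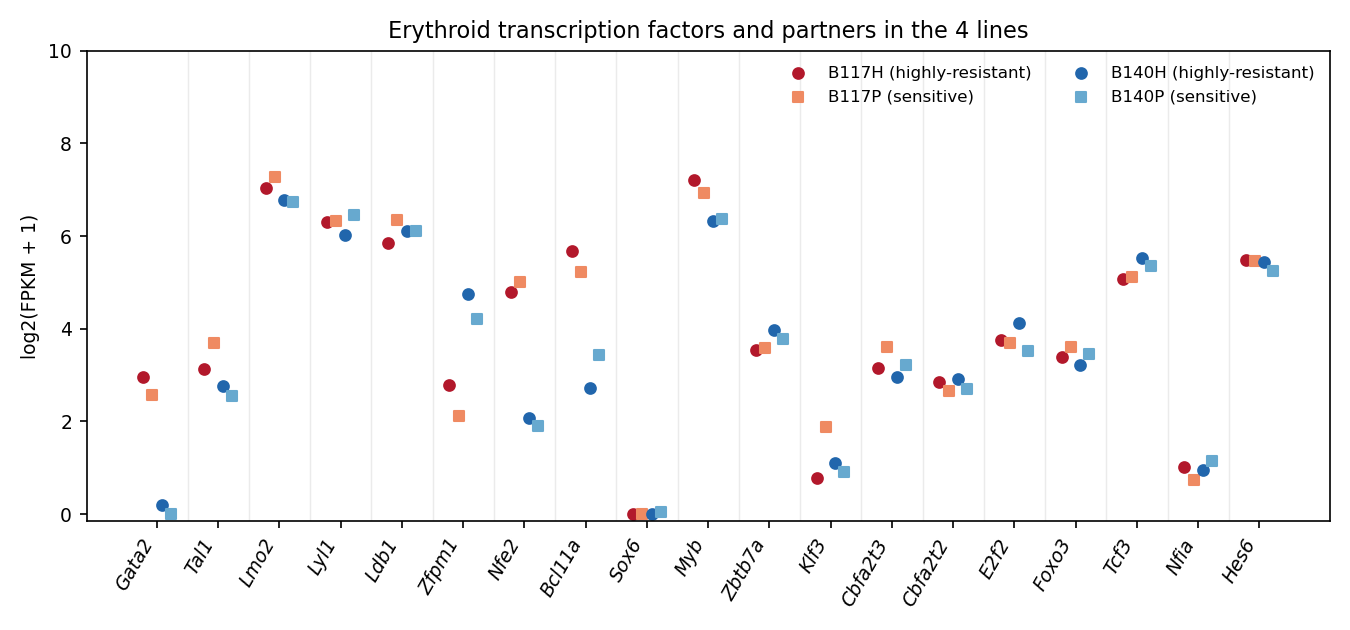
Level of 19 erythroid transcription factors and partners in the 4 libraries, as log2(FPKM + 1); circles are the highly resistant lines and squares their parents. Gata2, Nfe2, Bcl11a and Zfpm1 differ between the lineages, and Sox6 is near 0 in all 4 lines.

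Factors that oppose GATA1 were also expressed. Among 6 such genes, 1 fell in lineage B117, none rose, and none passed in lineage B140, with medians of -0.04 and 0.18. Gfi1, the myeloid paralogue of Gfi1b, fell to 1.28 FPKM in B117H, against 4.56 in B117P, in the line where Gfi1b was higher, and had 0.561 in B140H and 0.387 in B140P. Sfpi1 had 81.3 FPKM in B117H and 111 in B117P, and 104 in B140H and 76.6 in B140P.

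Of 13 genes of erythropoietin signalling, 10 passed the filter and none passed the 2-fold rule in either lineage, with medians of -0.09 in B117 and -0.03 in B140. Pim1, a kinase induced by STAT5, had 6.83 FPKM in B117H and 13.8 in B117P, and 8.71 in B140H and 8.65 in B140P. Ptpn6, a phosphatase that turns off the receptor, had 80.6 FPKM in B117H and 107 in B117P, and 163 in B140H and 109 in B140P. Kit, the stem cell factor receptor of early red cell precursors, was listed at 0 in B140H and B140P, against 34.2 FPKM in B117H and 29.9 in B117P. Kit was chosen after its values were seen.

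The shared enzymes of haem synthesis were expressed in every line, unlike Alas2. All 8 genes of the list were above 1 FPKM in the 4 libraries. None passed the rule in lineage B117 and 1 rose in lineage B140, with medians of -0.21 and 0.09. The rise was of Fech, ferrochelatase, which inserts iron into haem, with 16.6 FPKM in B140H and 6.37 in B140P, against 5.99 in B117H and 7.37 in B117P. Alas1, which carries out the first step outside red cells, had 10.3 FPKM in B117H and 15.7 in B117P, and 16.1 in B140H and 10.4 in B140P.

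Of 9 genes of iron uptake and storage that passed the filter, none passed the 2-fold rule in lineage B117 and 1 rose in lineage B140, with medians of -0.27 and 0.38. The rise was of Hmox1, haem oxygenase 1, which breaks haem down, with 17.9 FPKM in B140H and 3.81 in B140P, against 3.19 in B117H and 4.66 in B117P. Ftl1, the ferritin light chain, had 2360 FPKM in B140H and 1348 in B140P, a log2 ratio of 0.81, and 667 in B117H and 803 in B117P. Ferritin genes have many pseudogene copies, which makes this level uncertain. Tfrc, the transferrin receptor through which red cell precursors take up iron, had 83.0 FPKM in B117H and 128 in B117P, and 116 in B140H and 115 in B140P.

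Red cell membrane genes were mostly near 0. Of 15 found, 11 were below 1 FPKM in B117H and in B117P and 13 in B140H and in B140P, and the summed level of the list was 54.3 FPKM in B117H, 61.1 in B117P, 29.0 in B140H and 30.8 in B140P. Most of it came from Epb4.1, the protein 4.1 gene, which many cell types use, with 38.8 FPKM in B117H and 49.0 in B117P, and 20.9 in B140H and 23.0 in B140P. Slc4a1, the band 3 anion exchanger, stayed at or below 0.518 FPKM. Ank1, the red cell ankyrin, was higher, with 2.50 FPKM in B117H and 1.01 in B117P, and 0.0146 in B140H and 0.0188 in B140P. Tmod1, which caps actin filaments, lay between 6.09 and 7.29 FPKM in the 4 lines. None of the 3 genes that passed the filter passed the rule in either lineage, with medians of 0.05 and -0.13. Aqp1, the water channel of red cells, had 3.94 FPKM in B117H and 2.31 in B117P, and 0.0299 in B140H and 0.671 in B140P. Its log2 ratio of -0.70 in lineage B140 is understated by the pseudocount of 1. Ank1 did not pass the filter, so the rule was not applied to it. The choice of Slc4a1 and Ank1 was made with their values known.

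Of 10 red cell enzyme and chaperone genes found, 5 passed the filter and none passed the rule in either lineage, with medians of 0.08 and 0.22. Those expressed are used by many cells, such as Cat, catalase, with 38.1 FPKM in B117H and 29.8 in B117P, and 62.6 in B140H and 53.5 in B140P. Car1, the carbonic anhydrase of red cells, stayed at or below 0.138 FPKM and was chosen after its values were seen.

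Gfi1b is also a gene of platelet precursors, so markers of other GATA-dependent cells were read beside it. Of 11 megakaryocyte markers, 2 were at 1 FPKM or more in B117H, 3 in B117P, 2 in B140H and 2 in B140P, with summed levels of 21.3 FPKM in B117H, 16.5 in B117P, 23.5 in B140H and 20.4 in B140P. Gp6, the platelet collagen receptor, was listed at 0 in all 4. Itgb3, an integrin subunit, had 18.3 FPKM in B117H and 12.7 in B117P, and 14.6 in B140H and 12.3 in B140P. Gp9, a platelet adhesion receptor subunit, had 8.12 FPKM in B140H and 6.71 in B140P, against 1.49 in B117H and 1.53 in B117P. The 2 expressed markers had a median of 0.24 in both lineages and none passed the rule in either.

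Of 13 mast cell, basophil and eosinophil markers, 2 were at 1 FPKM or more in each B117 line and 1 in each B140 line, with summed levels of 28.7 FPKM in B117H, 32.0 in B117P, 6.26 in B140H and 15.8 in B140P. Fcer1a, Cma1, Tpsb2 and Tpsab1 were listed at 0 in all 4. Mcpt8, a basophil protease that granulocyte progenitors can also express, had 20.9 FPKM in B117H and 25.5 in B117P, and fell to 5.65 in B140H, against 15.5 in B140P. Besides Mcpt8, Gata2 alone passed the filter, and the medians were 0.06 in lineage B117 and -0.56 in lineage B140. The part of such cells in the levels of Gfi1b was not tested.

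The genes with the profile most like a member's over the 4 libraries were found by Euclidean distance of centred log2(FPKM + 1). Gfi1b was closest to Esyt2, a membrane contact protein (distance 0.12), with 21.7 FPKM in B117H, 9.57 in B117P, 9.58 in B140H and 10.6 in B140P. Rhd was closest to Itgb7, an integrin subunit of lymphocytes (0.05), with 46.9 FPKM in B117H, 40.2 in B117P, 41.9 in B140H and 17.9 in B140P. Hba-a1 was closest to Sbsn (0.06), Hbb-b2 to Ptpla (0.36) and Hbb-b1 to the small RNA gene Snord22 (0.60). With 4 libraries and 10066 genes, close profiles are a description only.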

How the data were processed

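The authors deposited 1 FPKM value per gene and library for 4 libraries, with mm9 coordinates. TopHat2 2.0.4, Cuffdiff and the mm9 build are named per the submitters' processing notes. The annotation, strand setting and treatment of multiply mapped reads are not given in the sources used here. No reads were realigned. Cuffdiff-type estimates divide reads among near-identical copies by a model, and each globin pair is listed at 1 span, so the pairs were also summed.

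Ratios were log2 of FPKM with a pseudocount of 1, which understates changes of low genes, among genes averaging at least 1 FPKM over the libraries. With 1 library per line no test exists within a lineage. limma 3.58.1 (R 4.3.3) was fitted to log2(FPKM + 1) of all such genes, with lineage blocked, the variance trended on the mean and p-values adjusted by Benjamini-Hochberg. The pairing of lines comes from the series' design, since each resistant line was derived from its parent. Nothing says that the libraries came from separate cultures, so p-values measure only the spread between these samples.

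Listed starts count from 0, as 6285 of 19357 gene span lengths equal those of RefSeq (GRCm38.p6) on that reading and 434 on the other, so 1 was added. The spacing of low FPKM, multiplied by transcript length, gave each library's depth. The source was 761 genes with 1 annotated transcript of 3 kb or longer. Only their low values entered, from 45 in B140H to 67 in B117H. Of the low values, 74.6% to 84.4% per library lay within 0.15 of a whole fragment, a share that the choice of the unit itself raises. Whole reads were not recovered for nearly all genes, so no count test was run. The intervals rest on estimated fragments, which carry the error of the depth and of the transcript length. Fragments of members used 1 annotated GENCODE M21 transcript each, the shorter of a globin pair. A 0 was read as at most 3 fragments.

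The members and gene lists were chosen with earlier results of these data known. Named genes are the members, up to 4 expressed genes per list with the widest ratio in either lineage, the nearest gene on each side and the most alike profile; the text marks any other gene. The lists are other globins, haem synthesis, iron, membrane, enzymes, erythroid factors, factors opposing GATA1, erythropoietin signalling, and megakaryocyte, mast cell and myeloid markers. Steps were tested on simulated data. Alternatives were a pseudocount of 0.1, no filter, a mean of 5 FPKM, a 4-fold rule, median-centred ratios, summed pairs and, for limma, no block, no trend and each library left out. Versions were scipy 1.17.1, pandas 2.3.3, numpy 2.4.6, matplotlib 3.10.9 and Python 3.11.15.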

Additional observations from a re-analysis of the deposited data

Results flagged for a closer look

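Values that moved in opposite directions in the lineages are given here as the log2 ratio in lineage B140 minus that in lineage B117, on the log2(FPKM + 1) scale. With 1 library per line the differences were not tested. Gfi1b was higher in B117H than in its parent and slightly lower in B140H, a difference of -1.15. Hbb-b1 differed by 4.95 and Hbb-b2 by -3.37, and both depend on the pseudocount, since Hbb-b1 is at or near 0 in B117H and B140P and Hbb-b2 near 0 in B140H. Hba-a1 and the summed alpha pair each differed by -0.30, on 38.8 estimated fragments or fewer.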

How the results depend on the processing

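The counts of members past 2-fold were 2 in lineage B117, 3 in lineage B140, 2 between the parents and 3 between the resistant lines. With globin pairs summed each count was 1. With a mean of 5 FPKM required, which 2 members met, they were 1, 1, 0 and 1. With a 4-fold rule they were 0 in lineage B117, 2 in lineage B140, 0 between the parents and 2 between the resistant lines. Leaving out members below 0.01 FPKM in either library, an alternative added after the data were seen, gave 1 in each lineage. Centring, which shifts lineage B140 by 0.11 and the resistant lines by 0.15, raised the last count to 4 by adding Gfi1b at -1.11. Over all expressed genes centring turned 233 higher and 164 lower in lineage B140 into 173 and 199, and 975 higher and 925 lower between the resistant lines into 761 and 1062. No count changed with a pseudocount of 0.1, run with the filter on, or without the filter. Leaving out the filter could not change a count. The members it added stayed below 1 FPKM in every library, where FPKM + 1 cannot differ 2-fold. The share of all genes past 2-fold was computed for the main rule and for centring only, so the other counts have no background.

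limma called 0 members in the paired fit, 0 without the replicate block and 0 under every other setting run, including each library left out without the block, where 1 group has a lone library assumed to vary like the rest. Over all genes, 4 were called with a mean of 5 FPKM and 6 without B140P, against 0 in the paired fit. Of 68 recomputed log2 ratios, 13 moved beyond counting error or had a library at 0, and no called ratio reversed. Of 49 recomputed limma estimates, none of them called, 6 changed sign, each with a library left out. These estimates ranged between -0.042 and 0.92 for Gfi1b, -0.51 and 0.50 for Hba-a1, -0.96 and 2.07 for Hbb-b1, and -3.09 and 0.74 for Hbb-b2. Rhd kept its sign, at 0.10 or more. The sign changed without B117H for Gfi1b (-0.042), without B117P for Hba-a1 (0.35), without B140H for Hba-a1 (0.50), Hbb-b1 (-0.96) and Hbb-b2 (0.74), and without B140P for Hbb-b1 (-0.40). Depth limits Gata1, Epor and Klf1, which rest on 21.1 estimated fragments or fewer.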
